A study of Homo sapiens with 2 samples.

Results

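TRF2, the product of the TERF2 gene, is part of shelterin, the complex that coats and protects the repeats at chromosome ends. The peaks described here lie far from any telomere, over the centromere of chromosome 1. They were the listed peaks with a summit between 121.7 and 125.1 Mb of chromosome 1 on hg38, the interval of the cytogenetic centromere bands p11.1 and q11. By this rule there were 1986 of 24258 peaks, which is 8.19% of them (95% interval 7.85% to 8.54%, exact binomial). The values come from 1 library immunoprecipitated with an antibody to TRF2 from fixed HCT116 cells, a colorectal carcinoma line, set against 1 input library of the same sonicated chromatin. Per the labels the cells had been plated for 72 h before fixation with 1% formaldehyde, and no treatment is labelled for either library. The name of the peak list mentions a control siRNA, which the labels do not. Each group being a single library (n = 1), neither samples nor regions could be compared by a test, so values are set side by side and intervals cover counting error only.

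Human centromeres are built on alpha satellite, a short AT-rich repeat unit called a monomer. Monomers that differ from each other are joined into a longer block, the higher-order repeat, and this block is copied in tandem over megabases. The alpha satellite of chromosome 1 belongs to a family that it shares with chromosomes 5 and 19. On part of such an array the histone variant CENP-A marks the kinetochore, and many monomers carry a binding site of the protein CENP-B. Beside its place at telomeres, TRF2 has been reported at pericentromeric satellite DNA. In hg38 the large centromeric arrays are models assembled from reads, so the order of the repeats in them is not that of any one chromosome. Reads from such arrays often fit several places equally well, and the rule by which they were placed is not stated. A peak in the array therefore stands for a position of the model and not for a single place in the cells.

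The centromere of chromosome 1 held many narrow peaks, most of them in one long stretch. The 1986 peaks amounted to 584 per Mb (exact Poisson interval 559 to 610) and covered 292 kb, or 8.60% of the 3.4 Mb window. They made up 82.3% of the 2413 peaks of chromosome 1. Among the 23 chromosomes with a peak in their centromere bands, chromosome 1 ranked 2 by number and 2 by density, and the median of these bands was 82.6 per Mb. Chromosome 13, which had most, held 3317 peaks at 1382 per Mb. Chromosomes 5 and 19, which share the satellite family, had 275 peaks at 51.9 per Mb and 127 peaks at 32.6 per Mb. The counting intervals were 45.9 to 58.4 per Mb on chromosome 5 and 27.15 to 38.75 per Mb on chromosome 19. They treat peaks of 1 library as independent, so their lack of overlap is no test between the 3 chromosomes. How reads of the shared family were divided among these chromosomes was not tested.

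Peaks were not spread over the whole window. In bins of 100 kb, 23 adjoining bins from 122.5 to 124.8 Mb each held 66 to 96 summits, with a mean of 78.4 and an SD of 7.41 between bins. Counts placed at random with that mean would have an SD of 8.86. This dense stretch held 1804 peaks, or 90.8% of the members in 67.6% of the length, at 784 per Mb (exact Poisson interval 749 to 821). The other 11 bins held 0 to 42 summits, and together 182 peaks at 165 per Mb (142 to 191). The step at both ends was sharp. The last bin before the dense stretch held 22 summits and the first within it 96, while the last bin within it held 72 and the next 18.

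The 5 bins with most summits all lay in the dense stretch. The bin of 96 summits began at 122500001, at its short-arm end. Bins of 89 and 87 began at 122900001 and 122800001. A bin of 85 began at 124600001 near the long-arm end, and bins of 84 began at 123100001 and 124300001. Together 5 such bins held 22.2% of the peaks, so no small part of the array carried the bulk of them. Only 1 of 34 bins was empty. It lay within the longest gap, 210 kb without a summit between 121968576 and 122178552, which divided the sparse short-arm side into 55 peaks before it and 65 after it.

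**Figure D1:**
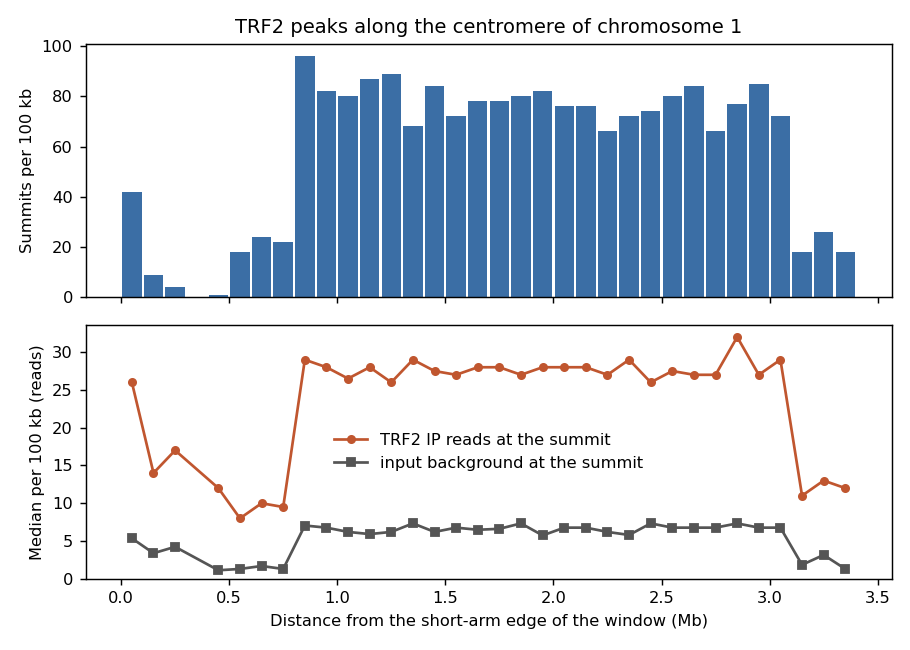
The upper panel counts TRF2 summits in bins of 100 kb against the distance from the short-arm edge of the window (Mb), and the lower panel gives the median reads of the TRF2 library and the median input background at those summits. In the dense stretch 66 to 96 summits per bin stood at a median of 26 to 32 reads, and both libraries were lower in most bins outside it.

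The summits were deep in both libraries. The read pileup at each summit was recovered from the fold and p-value of the authors' peak caller. Its median was 27 reads at chromosome 1 (quartiles 21 and 35, range 5 to 106), against 10 reads (7 and 17) at the 22272 peaks elsewhere. The input background, on the scale of the immunoprecipitated library, was high as well, with a median of 6.20 against 1.53 elsewhere. Of the members, 9 (0.453%) had a background at its genome-wide minimum of 1.05, against 32.0% of the peaks elsewhere, and none of the 1804 in the dense stretch did. Reads of the TRF2 library and of the input were thus high together over this centromere.

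Fold over input was modest in spite of this depth. Its median was 3.69 (quartiles 2.93 and 4.49, range 1.82 to 11.9), against 4.09 (3.41 and 5.13) at peaks elsewhere and 4.79 in the centromere of chromosome 13. A fold of 5 or more was reached by 317 members (16.0%), whereas 25.2% of the whole list reached it. By significance the order was the other way. A q-value under 0.05 was given to 1808 members (91.0%, exact interval 89.7% to 92.3%), against 79.3% of the whole list. A −log10 q of 5 or more was given to 1021 members (51.4%, 49.2% to 53.6%), against 30.0% of the whole list. By these measures chromosome 13 had 3151 and 1783 of its 3317 peaks, chromosome 5 had 78.2% and 27.6% of its peaks, and chromosome 19 had 63.0% and 5.51%. At equal fold a deeper summit has a smaller p, so these shares follow the depth as well as the enrichment.

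Within the members the fold moved against the background. Split into 4 equal groups by background, the 497 members of the lowest group (1.05 to 4.55) had a median fold of 4.32 at 20 reads. The 497 of the highest group (9.03 to 38.4) had a median fold of 2.76 at 38 reads. The reads above background moved the other way, with medians of 15.6, 19.4, 20.7 and 24.6 over the 4 groups from low to high background. Since fold has the background as its divisor, the order of the folds is partly built into the measure. Listing takes more reads above a higher background, so the rise in reads above background is partly built in as well.

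The dense stretch and its surroundings differed in depth more than in fold. Median pileup was 28 reads in the dense stretch and 12 outside it, and median background was 6.77 and 2.26. Median fold was 3.62 and 3.93. The surroundings were not alike. The 55 peaks before the longest gap had a median of 24 reads over a background of 5.08, and 30 of them (54.5%) passed a −log10 q of 5. The 65 peaks after it had 9 reads over 1.44, and 6 (9.23%) passed it, and the 62 on the long-arm side had 12 reads over 2.26, and 15 (24.2%) passed it. Bin by bin the dense stretch was level, with median folds of 3.29 to 4.03, median pileups of 26 to 32 reads and median backgrounds of 5.74 to 7.33. The bands p11.1 and q11 held 856 and 1130 peaks, and their median folds were 3.74 and 3.62.

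The 10 members of highest fold reached 9.02 to 11.9, and 9 of them lay in the dense stretch, which held 90.8% of all members. A fold of 5 or more was reached by 15.5% of peaks in the dense stretch and 20.3% of those outside it. The first of the 10 lay outside the stretch, from 122324602 to 122324681, with 31 reads over a background of 1.69 (fold 11.9, −log10 q 24.2). Next came a peak from 123656190 to 123656380, with 65 reads over 4.55 (fold 11.9, −log10 q 46.0). The pair shows the same fold reached at unequal depth. Others lay from 123771248 to 123771509 (fold 11.4, 59 reads), 123347017 to 123347174 (11.11, 54 reads), 123303893 to 123304009 (10.8, 63 reads) and 124757687 to 124757774 (10.6, 81 reads). The remaining 4 began at 123009853 (fold 10.0, 59 reads), 123021992 (9.65, 74 reads), 124124229 (9.04, 47 reads) and 124763867 (9.02, 50 reads). By fold the first of these ranked 219 in the whole list. Their backgrounds ran from 1.69 to 6.77, within a range of 1.05 to 38.4 over all members.

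The deepest members were mostly others. A peak from 123558078 to 123558434 had 106 reads over a background of 31.0 (fold 3.34), and one from 124741269 to 124741527 had 99 reads over 20.3 (fold 4.69). A peak from 124377186 to 124377281 joined depth with fold, at 95 reads over 10.2 (fold 8.61), and had the highest −log10 q of the members, 52.3. Peaks from 124732270 to 124732445 (94 reads, fold 2.60) and 123707237 to 123707651 (89 reads, fold 3.56) followed. The lowest fold, 1.82, was that of a peak from 123681847 to 123682159 with 44 reads over 23.7. Depth alone thus did not mark the enriched summits.

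Members were narrow and separate. Their median width was 124 bp, and 105 (5.29%) had the smallest width of 69 bp, against 17.2% of the whole list. The 3 widest, of 630, 576 and 564 bp, lay from 124437923 to 124438552, 124751462 to 124752037 and 122876915 to 122877478. No 2 peaks touched, the closest being 75 bp apart, and 24.9% lay within 200 bp of another peak. The settings of the peak caller are not stated, and they can bear on the smallest width and the smallest gap. Joined at gaps of up to 1000 bp between summits, they formed 1055 clusters.

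Their spacing showed a repeat. The median distance between neighbouring summits was 1038 bp over the window (quartiles 695 and 1803 bp) and 1021 bp in the dense stretch. A periodogram, which asks for each period from 120 to 4000 bp how well the summits fall on a common phase, was computed in windows of 50 kb and averaged. Positions placed evenly at random have an average power of 1. In the dense stretch the power had a single large maximum of 7.72 at 1021 bp (46 windows, 39.2 summits per window), which fell to its mid-height at 1010 and 1034 bp. The next largest power, apart from its flanks, was 1.59 at 230 bp. At the divisors 510.5, 340.3 and 170.2 bp it was 1.32, 1.05 and 1.10. The 970 members of the stretch with a −log10 q of 5 or more and the 834 below it gave 1021 and 1020 bp separately, with powers of 4.41 and 4.11.

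The same calculation gave no maximum of this size in the 12 other centromeres with 10 or more windows. Those were taken over their whole centromere bands and not over a dense stretch. Over its whole window chromosome 1 had a leading power of 6.79, also at 1021 bp (53 windows, 36.5 summits per window). On chromosome 13, with 107 summits per window, the leading period was 170 bp, about the length of an alpha satellite monomer, with a power of 2.01. The second power was 1.74 at 292 bp. A leading power is the largest over all periods tried, so the random average of 1 is not its yardstick. At 1021 bp the power on chromosome 13 was 0.430. The chromosome 1 period was 6.01 times the leading period of chromosome 13, a ratio that rests on this small maximum. On chromosome 8, whose windows held a like number of summits (39.0), the power at 1021 bp was 0.966 and the leading power 1.45. Over all 12 the power at 1021 bp was 0.430 to 1.00 and the leading power 1.45 to 2.44, the latter at 3035 bp on chromosome 6. Chromosome 5 had a power of 1.00 at 1021 bp in 12 windows of 16.0 summits. Chromosome 19 had 1.02 in only 5 windows. Power grows with the number of summits per window, so a period of the same regularity would be harder to see in the sparser arrays, and the differences were not tested.

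**Figure D2:**
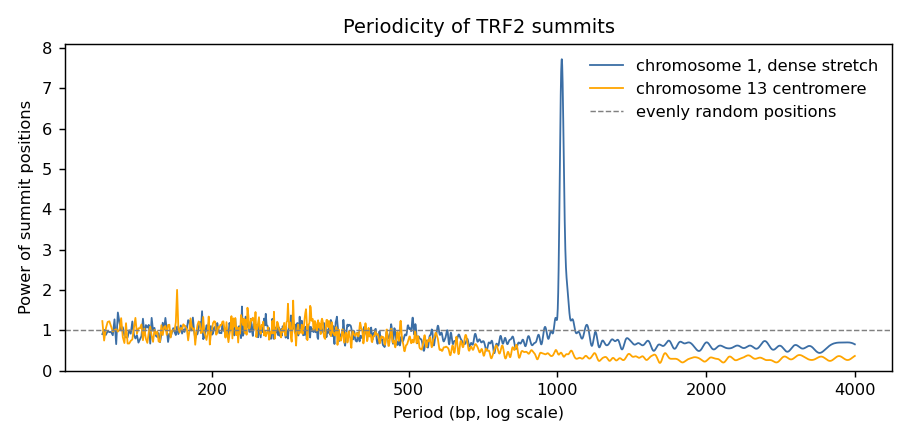
Power of TRF2 summit positions against period (bp, log scale), averaged over windows of 50 kb, for the dense stretch of chromosome 1 and the centromere of chromosome 13, with the average for random positions dashed. The chromosome 1 line rises to 7.72 at 1021 bp, while the chromosome 13 line has its maximum of 2.01 at 170 bp.

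Regularity was higher in the long-arm part of the dense stretch than in the short-arm part, without rising up to its end. The stretch was divided into 3 sections of 800, 750 and 750 kb with 658, 573 and 573 summits. Leading power was 3.07 at 1034 bp in the short-arm section, 7.60 at 1023 bp in the middle section and 14.0 at 1020 bp in the long-arm section. The phase concentration of a window runs from 0, with no common phase, to 1, with every summit at the same place in the period. Taken at 1021 bp, it had medians of 0.201, 0.425 and 0.619 in the 3 sections. For 39.2 summits placed evenly at random the mean would be 0.142. Concentration was over 0.5 in 0 of 16, 4 of 15 and 13 of 15 windows. A single period of 1021 bp lies 13 bp from the leading period of the short-arm section, and over a window of 50 kb this shift adds up. With each section taken at its own leading period, an alternative chosen after seeing the data, the medians were 0.221, 0.437 and 0.626, and 2 of 16, 5 of 15 and 13 of 15 windows were over 0.5. Over the 46 windows the Spearman correlation of concentration with position was 0.816 at 1021 bp and 0.782 at the sections' own periods, a description over windows of 1 library. At 1021 bp the highest concentration, 0.735, was that of the window beginning 1650 kb into the stretch. The windows after it, up to the long-arm end, had 0.420 to 0.661.

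**Figure D3:**
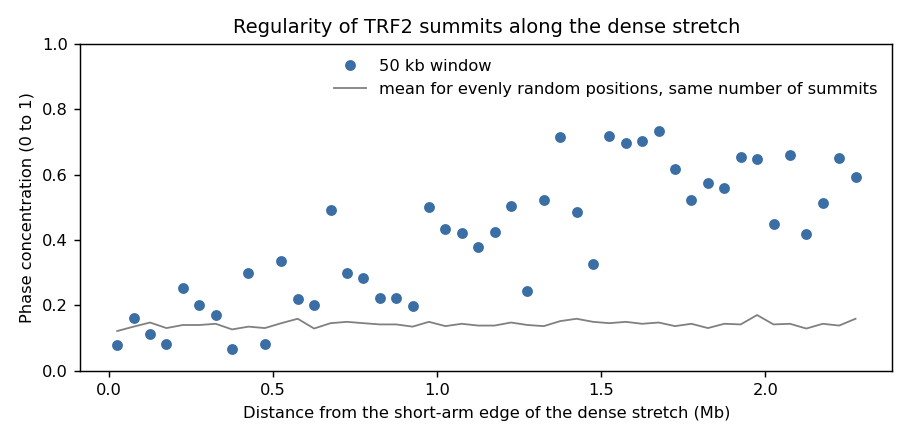
Phase concentration at the period of 1021 bp in each of 46 windows of 50 kb, against distance from the short-arm edge of the dense stretch (Mb). The grey line is the mean for random positions with the same number of summits. Windows near the short arm lie around that line and those near the long arm between 0.420 and 0.735.

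Depth and fold were close among the sections. Their median folds were 3.68, 3.70 and 3.59, their median pileups 27.5, 28 and 28 reads, and their median backgrounds 6.77, 6.73 and 6.77. Shares with a −log10 q of 5 or more were 54.1%, 53.8% and 53.4%. Peaks were somewhat wider toward the long arm, with median widths of 123.5, 124 and 132 bp. The sections had 82.2, 76.4 and 76.4 summits per 100 kb, so the least regular one was the densest, and the Spearman correlation of summits per window with position was -0.27 over the 46 windows.

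Distances between all pairs of summits also differed between the sections. In the long-arm section 158, 174, 168, 167 and 157 pairs lay within 100 bp of the multiples 1 to 5 of the period. Midway before each of these multiples, in windows of the same size, there were 26, 28, 21, 28 and 33 pairs. At the multiple of 20, some 20 kb away, there were still 139 pairs against 32. In the short-arm section the 5 multiples had 147, 120, 120, 130 and 123 pairs against 64, 80, 94, 98 and 116 midway, at the multiple of 10 there were 119 against 95, and at the multiple of 20 there were 100 against 108. These last positions are 130 and 260 bp from the multiples of 10 and 20 of the short-arm section's own period, beyond the 100 bp allowed. Counted at its own period of 1034 bp, that section had 150 pairs at the multiple of 1 against 63 midway, 131 against 93 at the multiple of 10 and 130 against 91 at the multiple of 20. The long-arm section at its own period of 1020 bp had 158 against 26, 151 against 42 and 145 against 31. At these 3 multiples the ratio of pairs was 2.38, 1.41 and 1.43 near the short arm and 6.08, 3.60 and 4.68 near the long arm. Near the short arm the ratio at the multiples 2 to 5 was 1.53, 1.12, 1.23 and 1.22. Near the long arm it was 6.44, 7.95, 5.57 and 4.36. Pairs were thus in excess at every multiple counted at the sections' own periods, but only slightly at the multiple of 3 near the short arm. The ratio was larger near the long arm throughout. Each section's own period was chosen as the one of highest power on the same summits. In the centromere of chromosome 13 the multiple of 1 had 1421 pairs against 1429 midway.

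**Figure D4:**
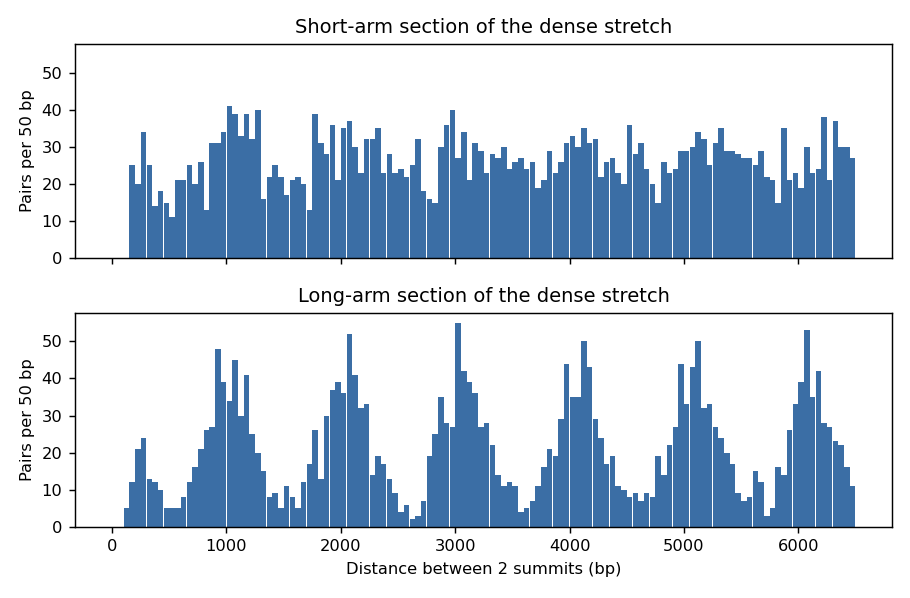
Number of pairs of TRF2 summits per 50 bp of distance between them, in the short-arm section and the long-arm section of the dense stretch. The long-arm section has maxima near each multiple of 1021 bp with deep troughs between them, and the short-arm section has a maximum near 1021 bp and shallower ones beyond it.

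A run of 7 neighbouring peaks, chosen after its values were seen, shows this spacing. It lies in the window of highest concentration (0.735, 36 summits, from 124150001 to 124200000). The summits were at 124153126, 124153996, 124155074, 124156148, 124157163, 124158296 and 124159203. Their successive distances were 870, 1078, 1074, 1015, 1133 and 907 bp. Fold ran from 1.90 to 6.09 and pileup from 17 to 32 reads in these 7 peaks. The 6 distances differ from each other by up to 263 bp, more than the width of a typical peak.

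Within the period the summits kept to one part of it. Each summit was placed relative to the phase of the other summits in its window. In the long-arm section 405 of 573 summits (70.7%, exact interval 66.8% to 74.4%) lay within 170.2 bp of the phase, against 33.3% for random positions. In the short-arm section 269 of 658 (40.9%, 37.1% to 44.8%) did, and at its own period of 1034 bp 262 (39.8%, 36.1% to 43.7%) lay within 172.3 bp. Within 255 bp lay 57.9%, 74.2% and 86.7% of summits in the 3 sections from the short arm to the long arm, against 50% for random positions. At the sections' own periods the shares within the same part of the period were 53.3%, 74.0% and 86.7%. The random shares hold for a period fixed beforehand, whereas these periods were those of highest power on the same summits. No random share for a period so chosen was calculated, so the small excess near the short arm was not tested. In the long-arm section the favoured part spanned about 340.3 bp, with 97 to 105 summits in each of its 4 central slots of 85.1 bp and 9 and 11 in the outermost slots. In slots of 42.5 bp its counts were uneven, at 34 to 71 summits over the same stretch.

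**Figure D5:**
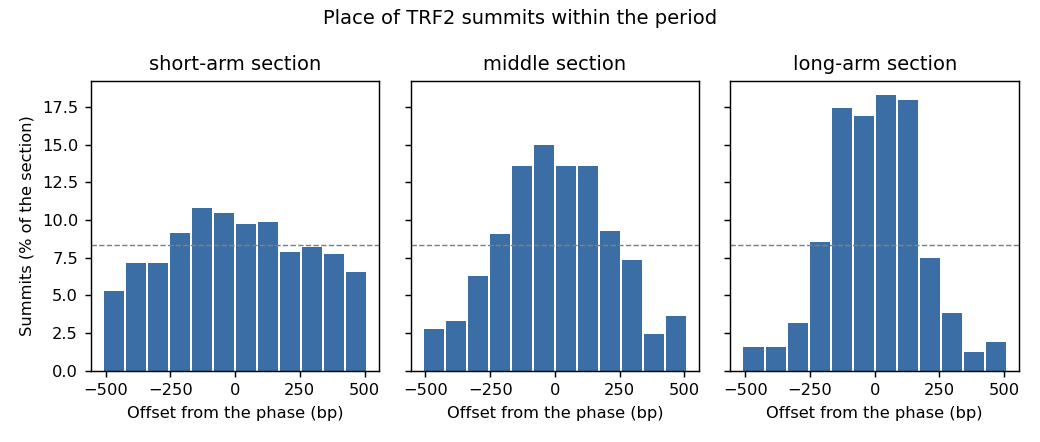
Share of TRF2 summits in 12 slots of the period, against offset from the phase of the other summits in the same window (bp), for the 3 sections of the dense stretch. The dashed line is the share in random positions, 8.33%. The central slots hold 16.9% to 18.3% each in the long-arm section and 9.73% to 10.8% in the short-arm section.

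Many units of 1 period carried no listed peak, and some carried more than 1. Counted in units of 1021 bp, the dense stretch had room for 2253 units. These are lengths on the model, and no sequence was used to match them to repeats. Of these 1157 had 1 summit, 293 had 2 and 20 had 3 or more, so 65.3% carried a peak. The share was 66.9%, 63.9% and 64.9% in the 3 sections, so it did not rise with their regularity. Where a unit of the long-arm section held 2 summits, they lay a median of 262 bp apart (86 units, quartiles 224 and 359 bp). Among distances between neighbours in the dense stretch, 348 of 1803 (19.3%) were under 510.5 bp, with a median of 279 bp. A further 974 (54.0%) were nearest to 1 period, with a median of 980 bp. Those nearest to 2 periods were 299 (16.6%), with a median of 1950 bp. Sorting by nearest multiple in itself holds these medians near 1 and 2 periods. The share nearest to 1 period was 53.3%, 54.9% and 53.85% in the 3 sections, so it did not follow their regularity. Neither this share nor that of units with a peak was calculated for random positions. A unit without a listed peak may still have held reads. The lowest listed pileup in this stretch was 12 reads. This is no fixed limit, since the list ends at a −log10 p of 3.01, which takes more reads over a higher background.

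Strength by place in the period was compared in 4 groups, from the nearest to the phase to the farthest, with limits at equal steps of distance. They held 747, 556, 289 and 212 summits. Their median folds were 3.50, 3.78, 3.63 and 3.60, and their median pileups 28, 28, 27 and 28.5 reads. A −log10 q of 5 or more was reached by 51.3%, 59.2%, 50.5% and 52.8%, so the highest values were those of the group next to the nearest. Their median backgrounds were 6.77, 6.70, 6.20 and 6.77. These differences were not tested. The sequence under the summits was not analysed here, so the place of the favoured part in the alpha satellite repeat, and any telomere-like repeat or CENP-B site in it, is not given.

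At the edges of the window the rule cut through unlike surroundings. On the short-arm side the first member, from 121716994 to 121717063 (fold 4.02, 37 reads), was 98.8 kb from the nearest peak outside, from 121618239 to 121618330 (fold 5.50, 20 reads). On the long-arm side the last member, from 125084367 to 125084499 (fold 3.34, 8 reads), was 21.5 kb from the next, from 125105896 to 125105980 (fold 3.41, 6 reads). Within 0.1 Mb outside there were 8 peaks on the short-arm side and 46 on the long-arm side. No annotated gene, promoter or miRNA of the RefSeq tables (GRCh38.p14) overlapped the window. The nearest were EMBP1, a transcribed pseudogene 128 kb away on the short-arm side, and LOC101929814, a lncRNA gene 18200 kb away beyond the heterochromatin of the long arm. Neither had a summit within it.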

How the data were processed

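Alignment and peak calling were done by the submitters. Bowtie2 2.3.2 and MACS2 2.1.0 are named in the submitters' processing notes, as are HOMER, ChIPseeker 1.36.0 and the assembly hg38 (GRCh38), with no settings. For every peak the deposited file holds its bounds, its summit and 4 numbers. The deposited fold is a ratio of TRF2 pileup to input background at the summit. The −log10 of the p-value and of the q-value in the deposited file come from the peak caller, and the lowest −log10 p was 3.01. The deposited score is that −log10 p times 10, cut to a whole number. All served only to order, filter and describe peaks of this list.

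Pileup and background were solved from fold and p, with 1 added to each of them in the fold and p as the Poisson probability of a larger pileup. Whole-number pileups fitted 100% of peaks within 0.001 of the −log10 p. Library totals were not used, and the largest pileup in the list was 138 reads. Bands came from circlize 0.4.16 (R 4.3.3). Summits were counted in bins of 100 kb, and the dense stretch is the longest run of bins with 50 or more. Periodogram power is the squared length of the sum of unit vectors at a period, divided by the number of summits and averaged over windows of 50 kb with at least 10 summits. Intervals at 95% are Clopper-Pearson for shares and exact Poisson for densities. The work used matplotlib 3.10.9, pandas 2.3.3, scipy 1.17.1, numpy 2.4.6 and Python 3.11.15. Tested on simulated data, the pileup was recovered in 100% of 428 peaks and the planted period, within 2%, in 15 of 15 sets of the size of the dense stretch. The simulated pileups were made with the formula used to recover them, so their recovery checks the arithmetic only. The planted regularity was fixed beforehand and not matched to these data. These sets thus do not show recovery at the phase concentrations of the dense stretch, least of all in the short-arm section. Coordinates are 1-based.

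The members, windows and settings were chosen with earlier results of these data known. Named peaks are the 10 of highest fold, 5 of highest pileup, 3 widest, the lowest fold and those at the edges. The periodogram, phase, sections and dense stretch were added after the positions were seen. No genome sequence was used, so the planned motif, GC and sequence displays were not analysed here.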

Additional observations from a re-analysis of the deposited data

How the results depend on the processing

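Of 69 alternative values for 26 results, 42 stayed within the counting interval or within 1.5 times the count, and 27 moved. The period of 1021 bp was 1019 to 1024 under 7 settings chosen after seeing the data. The share in phase (72.2%) was 67.0% with windows of 100 kb and 69.9% with peaks of −log10 q under 5. At the short-arm section's own period its share in phase was 53.3% in place of 57.9%, and its pairs at the multiple of 20 were 130 in place of 100. Keeping peaks with q under 0.05 gave 9.39% of the list in the window, a median fold of 3.79, a pileup of 28 reads and a distance between neighbours of 1067 bp. Keeping a −log10 q of 5 or more gave 1021 peaks, 14.0% of the list, a fold of 4.42, 33 reads, a width of 134 bp, 24.3% in the 5 densest bins and a distance of 1745 bp. A fold of 5 or more left 317 peaks and 5.18%, and a background above its floor gave 11.6%. Bins of 200 kb put 25.5% in the 3 densest. Gaps of 500 and 2000 bp gave 1610 and 392 clusters. Other peaks lay within 0 bp of 0% and within 400 bp of 36.2%. The most frequent single distance, 1171 bp, was unstable, at 2068 bp for q under 0.05, 930 bp for a −log10 q of 5 or more, 2042 bp for peak centres and 3057 bp with smoothing over 5 bp, and is not used above. The cause was not tested. No paired analysis was possible because there was 1 library per group. The planned motif and GC alternatives were not run. The lowest pileup in the list was 5 reads, and more were needed for listing over a higher background.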
